A study of Homo sapiens with 6 samples.

Results

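PAX3-FOXO1 is the fusion transcription factor of alveolar rhabdomyosarcoma, a childhood tumour with features of skeletal muscle. The 31 genes described here are known targets of that fusion, listed by name, with the myogenic factors left out. No value measured in these libraries was used to choose them, but earlier results of these data were known when they were chosen. All 31 were found by symbol among 35580 genes in the tables, and 26 passed the filter on low counts, of 15204 genes that did. The 6 libraries are polyA RNA-seq of Rh30, an alveolar rhabdomyosarcoma line labelled fusion positive. They fall into 3 libraries labelled control and 3 labelled as knockdown of DDX5 (siDDX5), and both groups carry the fusion. DDX5 is a DEAD-box RNA helicase that acts in transcription and in splicing. What the control cells received, and the dose and duration of the knockdown, are not given in the sources used here, and this 1 cell line is the only model of the tumour used.

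The fusion joins the DNA-binding domains of PAX3, a paired domain and a homeodomain, to the activation domain of FOXO1. It binds mostly at enhancers away from promoters, where it works with MYOD1, MYOG and MYCN. Its targets include receptor tyrosine kinases, neural transcription factors, cell-cycle regulators and metabolic enzymes. The comparison of siDDX5 with control asks whether the RNA of these genes differs when DDX5 is reduced.

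DDX5 itself was at 1356, 1438 and 1141 CPM in control and 551, 506 and 397 CPM in siDDX5. CPM is the count of a gene scaled to a common library total and corrected for library composition. The log2 fold change was -1.44 ± 0.15 (SE, adjusted p = 0.0115 by edgeR), and the groups did not overlap. The call was lost, at a log2 fold change between -1.54 and -1.41, when control replicate 1, siDDX5 replicate 1 or siDDX5 replicate 2 was left out. Depth was 18202402 to 19971888 estimated counts in the siDDX5 libraries and 21265569 to 26156858 in the control, so every siDDX5 library was shallower. All 8 myogenic markers were measured, with a summed level of 954 to 1272 TPM (a share of all transcripts, corrected for length) in the control and 941 to 1004 TPM in the siDDX5 libraries. The 3 epithelial markers summed to at most 0.341 TPM in any library, with KRT19 at 0 in all 6. The blood markers summed to 3.09 to 4.31 TPM in the control and 1.35 to 4.29 TPM in the siDDX5 libraries, the endothelial ones to 5.40 to 7.04 and 4.19 to 6.16 TPM, and the glial and neuronal ones to 4.89 to 9.72 and 5.40 to 8.89 TPM. CD3E, CDH5 and SYP were below 1 TPM on average in both groups. PECAM1 averaged 6.03 TPM in the control and 5.09 TPM in siDDX5, and GFAP 6.03 and 4.83 TPM. RBFOX3 averaged 1.36 and 2.22 TPM, and PTPRC 2.92 and 1.70 TPM. CD14 averaged 0.718 TPM in the control and 1.16 TPM in siDDX5. Of the genes on these 3 lists, CD14 was under an unadjusted p of 0.05 without the block described below (log2 0.89 ± 0.34 SE, adjusted p = 0.369 by edgeR). PTPRC, the more abundant blood marker, lay the other way (log2 -0.69 ± 0.40 SE, adjusted p = 0.550 by edgeR), lower in 3 of 3 pairs, with an unadjusted p of 0.0345 with the block. The part of any such cells in the values below was not tested.

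Rh30 cells held the fusion's targets at very different levels. By mean control TPM, 17 of the 31 were at 5 TPM or more, 4 between 1 and 5 TPM, and 10 under 1 TPM. The 5 highest held 70.2% of the summed TPM of all 31. FGFR4, a receptor tyrosine kinase for fibroblast growth factors, was at 221 ± 9.90 TPM (SD, n = 3) and stood above 97.1% of 19948 protein-coding genes. SKP2, which marks the cell-cycle inhibitor p27 for destruction, was at 206 ± 44.3 TPM (SD, n = 3), and RASSF4, a Ras-association domain protein that restrains Hippo signalling in this tumour, was at 128 ± 27.6 TPM (SD, n = 3). The control libraries of FGFR4 (211 to 231 TPM) and SKP2 (160 to 248 TPM) overlapped, so their order does not hold beyond the spread. RASSF4, at 112 to 160.0 TPM, overlapped SKP2 only through its highest library. ASS1, the enzyme that makes argininosuccinate for arginine synthesis, followed at 77.9 ± 23.3 TPM, then MET at 68.3 ± 2.65 TPM and PIPOX at 60.8 ± 11.9 TPM (SD, n = 3). For ASS1 most of this TPM came from short non-coding transcripts, and its coding transcripts were at 13.7 ± 1.88 TPM (SD, n = 3), below those of MET (67.8 TPM) and PIPOX (53.1 TPM). In bulk RNA a lower level can mean fewer cells with the transcript or less in each cell, and these cannot be told apart.

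**Figure D1:**
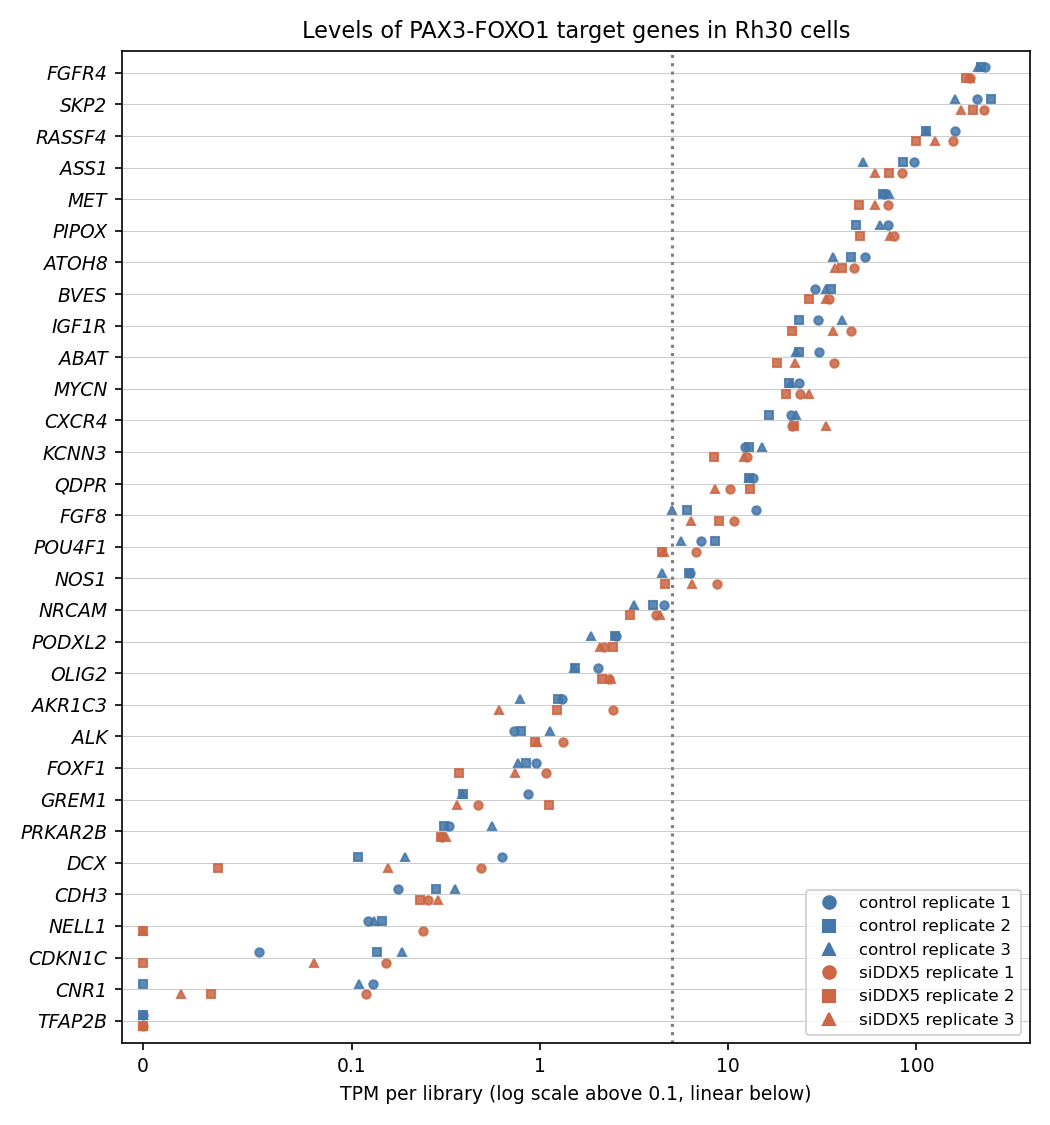
TPM (log axis above 0.1, linear below) of each of the 31 target genes in the 3 control and 3 siDDX5 libraries, 1 point per library, in order of mean control level, with a dotted line at 5 TPM. FGFR4 and SKP2 lead at above 150 TPM in every library, 10 genes average under 1 TPM in the control, and TFAP2B is at 0 in all 6 libraries.

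The top 25% of protein-coding genes held 7 of the targets: FGFR4, SKP2, RASSF4, ASS1, MET, PIPOX and ATOH8. Ranked over protein-coding transcripts alone, 6 targets were in the top 25%: ASS1 and ATOH8 dropped out, BVES came in, and SKP2 (171 TPM) stood above FGFR4 (125 TPM). ATOH8 averaged 5.71 TPM over its coding transcript against 44.7 TPM for the gene. The lower end held genes that are often named as fusion targets too. ALK, the receptor tyrosine kinase known for its own fusions in other tumours, averaged 0.883 TPM in the control. FOXF1, GREM1, PRKAR2B and DCX averaged 0.308 to 0.847 TPM. The 5 genes that did not pass the filter were CDH3 (P-cadherin), NELL1, CDKN1C (the cell-cycle inhibitor p57), CNR1 (a cannabinoid receptor) and TFAP2B. Of these, CDH3, NELL1, CDKN1C and CNR1 averaged 0.080 to 0.269 TPM, and TFAP2B, a marker used for fusion-positive tumours in pathology, was at 0 in every library. A count of 0 allows up to 3 counts, which is 0.115 to 0.165 CPM at these depths and covers counting error only.

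None of the 26 targets tested passed the test for a change with DDX5 knockdown. Under edgeR's quasi-likelihood test 0 passed an adjusted p of 0.05, where 0.171% of all genes tested did (26 of 15204), and the smallest adjusted p among the targets was 0.399. Same-numbered libraries of both groups deviated together, so a model that also took the replicate number as a blocking term was fitted. It called 0 targets, with 2.48% of all genes called, and its smallest adjusted p among the targets was 0.102. DESeq2's Wald test called 0 of the 17 targets to which it gave an adjusted p and gave none to the other 9, and limma on log2 TPM called 0 of 21. At an unadjusted p under 0.05 there were 2 targets against 11.3% of all genes, and with the block 6 targets against 20.4%. The median log2 fold change was -0.01 for the targets and -0.00168 for all genes tested. The median size of the change, without its sign, was 0.146 on the log2 scale for the targets and 0.161 for all genes. By sign, 13 fold changes were positive and 13 negative, from -0.71 to 0.70. Nothing in the labels says that the libraries came from separate cultures, so the p-values measure the spread between these libraries only.

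The fits also bounded the size of a change. The 95% interval of the log2 fold change lay within 1 either side of 0, which is a change of less than 2-fold, for 23 of the 26 targets and for 84% of all genes tested. It did so for 17 of 17 targets at 5 TPM or more, and the share of all genes at that level was not counted. FGFR4 had an interval of -0.29 to 0.30, MYCN of -0.23 to 0.36, MET of -0.36 to 0.15 and SKP2 of -0.24 to 0.45. The exceptions were GREM1, AKR1C3 and DCX, all at low counts, with DCX the widest at -2.41 to 0.98.

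**Figure D2:**
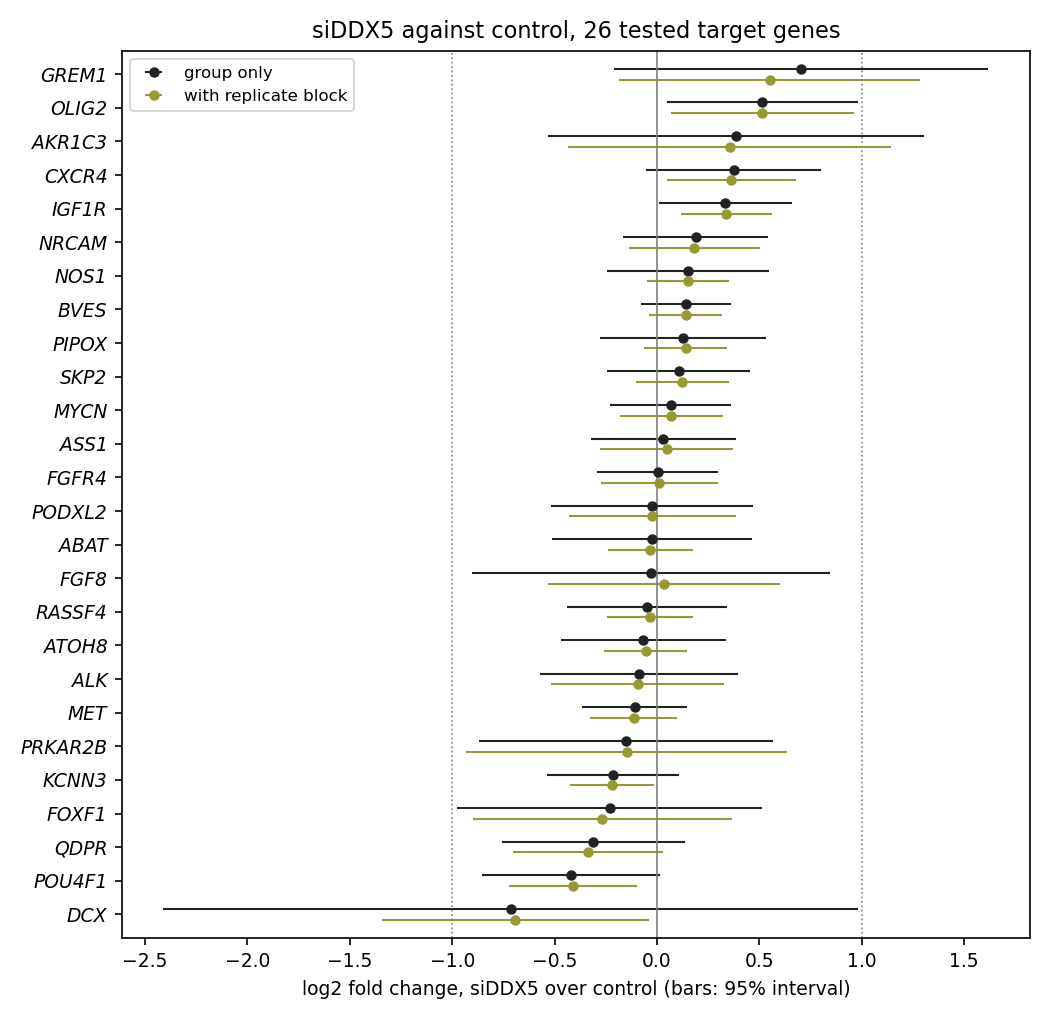
Log2 fold change of siDDX5 over control for the 26 targets tested, sorted by size, with the 95% interval from edgeR without the block (black) and with it (olive), and dotted lines at a 2-fold change. Without the block the values run from -0.71 for DCX to 0.70 for GREM1, and the intervals of 23 targets stay within 1 either side of 0.

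Among the receptors, IGF1R was the only target at 5 TPM or more with an unadjusted p under 0.05 without the block. IGF1R, the receptor for insulin-like growth factors, was at 97.7, 101 and 131 CPM in control and 145, 119 and 153 CPM in siDDX5. It was higher in 3 of 3 same-numbered pairs, but siDDX5 replicate 2 lay below control replicate 3, so the groups overlapped. The unit bears on this: in TPM it was at 29.9, 23.9 and 40.1 in control and 44.8, 21.8 and 35.8 in siDDX5, higher in 1 of 3 pairs, and limma on log2(TPM + 1) gave a log2 fold change of 0.09 (adjusted p = 0.953). From counts its log2 fold change was 0.33 ± 0.14 (SE, adjusted p = 0.429 by edgeR), and the unadjusted p was 0.0449 without and 0.00716 with the replicate block. CXCR4, the receptor for the chemokine CXCL12, was at 20.4, 15.5 and 21.1 CPM in control and 19.7, 23.1 and 31.3 CPM in siDDX5. The highest siDDX5 library, replicate 3, stood apart from the other five. This gave a log2 fold change of 0.37 ± 0.19 (SE, adjusted p = 0.499 by edgeR) and an unadjusted p of 0.0792 without and 0.0291 with the replicate block. Without siDDX5 replicate 3 the log2 fold change was 0.18.

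FGFR4 was at 328, 253 and 250.4 CPM in control and 255, 303 and 275 CPM in siDDX5. Control replicate 1 was the highest of the 6, so the groups overlapped, while the other control libraries lay below every siDDX5 library. The log2 fold change was 0.00 ± 0.13 (SE, adjusted p = 0.998 by edgeR), and 0.15 without control replicate 1. MET, the receptor for hepatocyte growth factor, was at 226, 216 and 242 CPM in control and 236, 188 and 210.1 CPM in siDDX5. Its groups overlapped too, with a log2 fold change of -0.11 ± 0.11 (SE, adjusted p = 0.765 by edgeR). ALK lay between 2.59 and 3.59 CPM over the 6 libraries. It was lower in 3 of 3 pairs, as were 21.2% of all genes, with an interval of -0.57 to 0.40. CNR1 was too low to test.

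Among the secreted factors only FGF8 averaged at least 5 TPM. FGF8, a fibroblast growth factor of embryonic patterning, was at 5.77, 2.69 and 2.03 CPM in control and 3.87, 4.13 and 2.32 CPM in siDDX5. Control replicate 1 was the highest of all 6 libraries and control replicate 3 the lowest, and the log2 fold change was -0.03 (SE 0.39). GREM1, an antagonist of bone morphogenetic proteins, was at 3.86, 3.11 and 2.98 CPM in control and 3.62, 9.72 and 2.92 CPM in siDDX5. Its fold change of 0.70 on the log2 scale (SE 0.41) rests on siDDX5 replicate 2, since the other 2 siDDX5 libraries lay within the control range or just below it, and it was -0.02 without that library. Its reads were divided between the primary copy and an alternate-haplotype copy of the gene, which were summed. NELL1 was not tested.

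The transcription factors split between a positive and a negative fold change in 2 neural genes. OLIG2, a factor of oligodendrocyte and motor neuron precursors, was at 3.24, 2.46 and 2.81 CPM in control and 3.82, 4.45 and 3.92 CPM in siDDX5. Every siDDX5 library exceeded every control library, as in 8.85% of all genes tested in that direction and 18% in either. OLIG2 had a log2 fold change of 0.51 ± 0.21 (SE, adjusted p = 0.399 by edgeR), at a mean control level of only 1.69 TPM. POU4F1, a factor of sensory neurons, was at 21.7, 25.3 and 16.3 CPM in control and 19.2, 14.6 and 13.5 CPM in siDDX5. It was lower in 3 of 3 pairs, and siDDX5 replicate 1 lay above control replicate 3. Its log2 fold change was -0.42 ± 0.19 (SE, adjusted p = 0.461 by edgeR) and its unadjusted p 0.0575 without and 0.0154 with the replicate block. Without control replicate 2 the log2 fold change was -0.26.

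MYCN, the Myc-family factor that is both a target and a partner of the fusion, was at 32.8, 25.9 and 27.8 CPM in control and 29.3, 28.4 and 32.8 CPM in siDDX5. Its groups overlapped, with a log2 fold change of 0.07 ± 0.13 (SE, adjusted p = 0.890 by edgeR). ATOH8, a basic helix-loop-helix factor, was at 97.6, 80.2 and 60.8 CPM in control and 83.1, 82.7 and 62.0 CPM in siDDX5. Its log2 fold change was -0.07 ± 0.18 (SE, adjusted p = 0.922 by edgeR), and the same replicate number was highest in both groups. FOXF1 had an interval of -0.98 to 0.51 at under 1 TPM.

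Among the genes of growth control, SKP2 was at 313, 399 and 262 CPM in control and 356, 378 and 314 CPM in siDDX5. Replicate 2 was the highest in both groups, and the log2 fold change was 0.11 ± 0.16 (SE, adjusted p = 0.841 by edgeR). RASSF4 was at 312, 205 and 214 CPM in control and 274, 208 and 226 CPM in siDDX5. Its log2 fold change was -0.05 ± 0.17 (SE, adjusted p = 0.943 by edgeR), and replicate 1 was the highest library in both groups. Neither gene's groups separated. PRKAR2B, a regulatory subunit of protein kinase A, was under 1 TPM, with an interval of -0.87 to 0.57.

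The enzymes also overlapped between groups. ASS1 was at 37.2, 30.2 and 24.4 CPM in control and 29.1, 32.0 and 32.7 CPM in siDDX5, with a log2 fold change of 0.03 ± 0.16 (SE, adjusted p = 0.966 by edgeR). ABAT, which breaks down the transmitter GABA, was at 82.7, 59.5 and 52.1 CPM in control and 84.4, 51.1 and 55.3 CPM in siDDX5. Replicate 1 was the highest in each group, and the log2 fold change was -0.03 ± 0.22 (SE, adjusted p = 0.980 by edgeR). PIPOX, a peroxisomal oxidase of pipecolic acid and sarcosine, was at 97.0, 60.2 and 83.4 CPM in control and 94.5, 71.9 and 96.3 CPM in siDDX5. Its log2 fold change was 0.13 ± 0.18 (SE, adjusted p = 0.837 by edgeR).

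QDPR, which regenerates the cofactor tetrahydrobiopterin, was at 11.5, 11.0 and 10.8 CPM in control and 8.13, 11.7 and 7.01 CPM in siDDX5. The log2 fold change was -0.31 ± 0.20 (SE, adjusted p = 0.593 by edgeR), with siDDX5 replicate 2 the highest of all 6 libraries and the other 2 siDDX5 libraries the lowest. It was -0.55 without siDDX5 replicate 2 and -0.15 without siDDX5 replicate 3. NOS1, the neuronal nitric oxide synthase that needs that same cofactor and is abundant in skeletal muscle, was at 51.1, 42.1 and 34.7 CPM in control and 57.8, 44.0 and 40.2 CPM in siDDX5. It was higher in 3 of 3 pairs, as were 21.7% of all genes, with a log2 fold change of 0.15 ± 0.18 (SE, adjusted p = 0.793 by edgeR). AKR1C3, a steroid and prostaglandin reductase, was at 1.31, 1.25 and 0.785 TPM in the control and 2.44, 1.23 and 0.604 TPM in the siDDX5 libraries. It shares reads with near-identical paralogs, of which AKR1C2 was at 3.69, 2.67 and 3.27 TPM in the control, so its own level is uncertain.

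The membrane and cytoskeletal genes held the other target whose groups separated. BVES, a Popeye-domain protein of muscle membranes that binds cyclic AMP, was at 70.0, 76.5 and 76.9 CPM in control and 78.6, 82.4 and 85.1 CPM in siDDX5. The highest control and the lowest siDDX5 library were at 76.9 and 78.6 CPM, and the log2 fold change was 0.14 ± 0.10 (SE, adjusted p = 0.626 by edgeR). On the TPM scale the sign turned, with -0.05 from limma on log2(TPM + 1). OLIG2 and BVES were the 2 targets whose CPM did not overlap, both higher, beside 8.85% of all genes in that direction. In the lower direction there were 0 targets, beside 9.2% of all genes. KCNN3, a small-conductance potassium channel opened by calcium, was at 65.7, 64.7 and 79.4 CPM in control and 62.3, 49.4 and 69.1 CPM in siDDX5. It was lower in 3 of 3 pairs, with a log2 fold change of -0.21 ± 0.14 (SE, adjusted p = 0.609 by edgeR) and an unadjusted p of 0.169 without and 0.0383 with the replicate block. It was -0.11 without control replicate 3 and -0.09 without siDDX5 replicate 2.

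DCX, a microtubule-binding protein of migrating neurons, was at 3.39, 0.464 and 1.03 CPM in control and 1.93, 0.217 and 0.828 CPM in siDDX5. Replicate 1 was the highest library in both groups by more than 2-fold, and the log2 fold change was -0.71 ± 0.76 (SE, adjusted p = 0.770 by edgeR). Its unadjusted p was 0.369 without and 0.0403 with the replicate block. NRCAM, a neuronal adhesion molecule, and PODXL2, a sialomucin, averaged 3.90 and 2.30 TPM in the control. Their log2 fold changes were 0.19 (SE 0.16) and -0.03 (SE 0.22).

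Variation with the replicate number was not particular to the targets. The same replicate number was the highest in both groups for 14 of the 26 targets, and for 48.1% of all genes tested. ABAT, RASSF4, SKP2, DCX and IGF1R were among the 14. Of the 6 targets under an unadjusted p of 0.05 with the block, 3 were higher in siDDX5 (IGF1R, OLIG2, CXCR4) against 10.1% of all genes in that direction. The other 3 were lower (POU4F1, KCNN3, DCX), against 10.3% of all genes. Without the block the 2 were IGF1R and OLIG2, both higher, against 5.29% of all genes, and 0 were lower against 5.99%. By pairs, 4 of 26 targets were higher in all 3 and 5 lower in all 3, beside 21.7% and 21.2% of all genes. The adjusted p of IGF1R with the block, from edgeR, was 0.102, and no target passed in either fit.

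**Figure D3:**
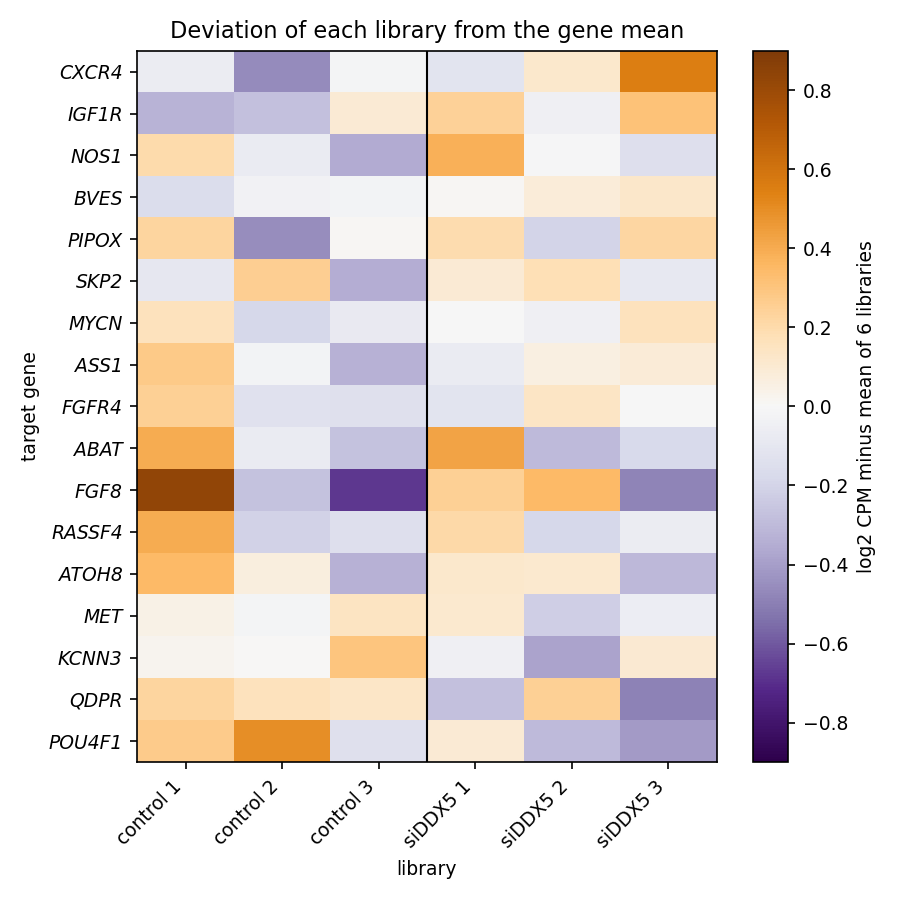
Heat map of the 17 targets at 5 TPM or more (rows) in the 6 libraries (columns), coloured by the log2 CPM of the library minus the gene's mean over all 6 (orange above, purple below). Replicate 1 is the highest of both groups for ABAT and RASSF4 and replicate 2 for SKP2, while IGF1R is higher and POU4F1 and KCNN3 are lower in siDDX5 in 3 of 3 pairs.

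Sums over a gene do not show which transcript was used, so the share of each transcript in its gene was tested with edgeR's diffSpliceDGE. Of 19 targets with enough transcripts, 1 changed: NOS1, with a Simes adjusted p of 0.00171, or 0.0316 with the block. Over all 10688 genes tested, 1.58% were called, and 1.2% with the block. The next smallest Simes adjusted p among the targets was 1.00 (0.607 with the block). How surely the quantifier divided reads among transcripts is not in the tables and enters none of these tests.

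The transcript behind the call was NOS1-206, at 12283 bases the longer relative of the main transcript NOS1-201 (12007 bases). It was assigned fewer than 1 estimated count in every control library and 20.6, 26.2 and 23.5 counts in the siDDX5 libraries. Those counts were 1.76%, 3.23% and 3.22% of the NOS1 counts, a mean of 2.74% ± 0.845 (SD, n = 3). A floor of 3 counts per library allows a control share of up to 0.358%, and the mean siDDX5 share was 7.65-fold that. This ratio is no lower bound, since the floor covers counting error only. It leaves out how reads were divided between NOS1-206 and NOS1-201. With a minimum mean of 50 counts per transcript NOS1-206 is not tested and the call is lost. Among the 276 bases by which NOS1-206 is longer is an exon of 102 bases, 34 codons that keep the frame, which is exon 17 of 30 at chr12:117255936-117256037 on the minus strand (GRCh38, GENCODE 29). An in-frame insert of this kind is known from the muscle form of the enzyme. The exon is shown as coding sequence that the called transcript adds, with its own bases in capitals between the last 20 and first 20 bases of its neighbours in the transcript, 5′ to 3′.
NOS1 exon 17: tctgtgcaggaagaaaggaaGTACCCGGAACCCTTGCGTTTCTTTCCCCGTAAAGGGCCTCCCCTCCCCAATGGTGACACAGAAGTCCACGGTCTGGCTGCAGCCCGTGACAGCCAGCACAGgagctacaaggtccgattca

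The other targets did not pass the test of transcript usage. RASSF4, KCNN3, SKP2, QDPR and FGFR4 are described for their transcripts after the values were seen. Of 56839 transcripts tested over all genes, 14.6% had shares that did not overlap between groups. For RASSF4, a transcript that retains an intron (ENST00000489171.5) held 37.1%, 41.1% and 51.9% of the gene's counts in the control libraries and 29.3%, 18.0% and 30.9% in siDDX5. Every siDDX5 library lay below every control library, with means of 43.4% ± 7.66 and 26.1% ± 7.03 (SD, n = 3). The coding transcript ENST00000340258.10 made up 51.7%, 46.4% and 35.5% in the control and 59.3%, 73.0% and 57.6% in siDDX5. Over the gene the Simes adjusted p of edgeR was 1.00, or 0.607 with the block. The retained intron spans 1508 bases at chr10:44970265-44971772 on the plus strand (GRCh38, GENCODE 29), between exons 2 and 3 of 11 of the coding transcript. Its edges are shown because they carry the splice sites that this transcript leaves unused, with 30 intron bases in capitals and 30 exon bases in lower case, 5′ to 3′. The intron starts with GT and ends with AG, and its last 30 bases hold a run of pyrimidines.
RASSF4 intron, 5′ edge: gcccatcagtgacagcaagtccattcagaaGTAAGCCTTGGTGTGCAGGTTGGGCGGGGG
RASSF4 intron, 3′ edge: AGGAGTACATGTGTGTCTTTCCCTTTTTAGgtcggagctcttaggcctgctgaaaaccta

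For KCNN3, the transcript ENST00000618040.4 held 23.4%, 25.2% and 17.1% of the counts in the control libraries and 32.3%, 40.9% and 37.8% in siDDX5. The shares did not overlap, as for 14.6% of all transcripts, with means of 21.9% ± 4.23 and 37.0% ± 4.37 (SD, n = 3). The main transcript ENST00000271915.9 averaged 68.6% and 54.5%. The gene's Simes adjusted p of edgeR was 1.00 in both fits. The longer transcript carries an added coding exon of 45 bases, 15 codons in frame, exon 4 of 9 at chr1:154737044-154737088 on the minus strand (GRCh38, GENCODE 29). By listed length this transcript is 23 bases longer in all, so the pair also differs elsewhere, and which bases underlie the shares was not tested. The exon is shown with its bases in capitals between 20 bases of each neighbouring exon, 5′ to 3′, since only the longer of the pair holds it.
KCNN3 exon 4: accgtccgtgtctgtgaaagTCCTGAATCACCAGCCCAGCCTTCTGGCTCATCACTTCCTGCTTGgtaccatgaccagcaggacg

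**Figure D4:**
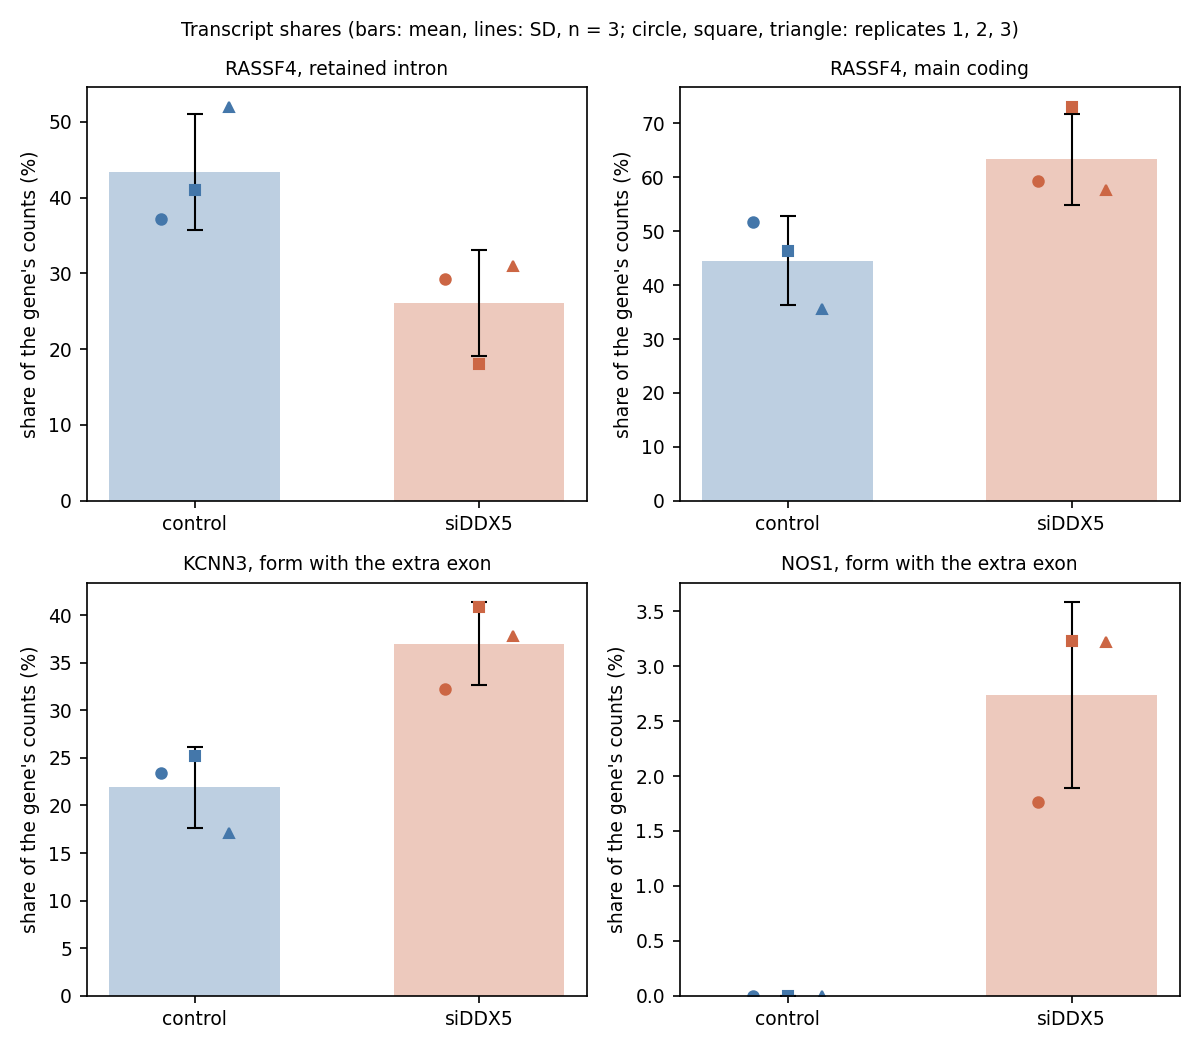
Share of the gene's estimated counts (percent) held by the named NOS1, RASSF4 and KCNN3 transcripts, with bars at the group mean, lines for the SD (n = 3) and 1 point per library. NOS1-206 is under 1 count in the control and 1.76% to 3.23% in siDDX5, and the RASSF4 and KCNN3 shares separate the groups without passing the test.

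Because some transcripts of a gene encode no protein, the targets were also summed over their protein-coding transcripts alone. None of the 26 passed, and 1 (OLIG2) was under an unadjusted p of 0.05, against 11.8% of 13136 genes in the same sums. With the block 6 were, against 19.7%: IGF1R, OLIG2 and RASSF4 higher, and POU4F1, KCNN3 and QDPR lower. In that fit the log2 fold change was 0.45 for RASSF4 (edgeR adjusted p = 0.153) and -0.47 for QDPR (edgeR adjusted p = 0.195). RASSF4 coding transcripts averaged 46.0% of the gene's counts in the control and 64.9% in siDDX5, and their log2 fold change was 0.39 (edgeR adjusted p = 0.550), against -0.05 for the whole gene. QDPR coding transcripts were at 12.7, 11.3 and 10.9 TPM in the control and 8.03, 10.7 and 7.25 TPM in siDDX5. These did not overlap, by a narrow gap, and the log2 fold change was -0.45 (edgeR adjusted p = 0.446). How many of all genes separate in coding TPM was not counted.

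FGFR4 showed how the unit bears on a level. Its gene-level TPM was 231, 221 and 211 in the control and 192, 184 and 193 in siDDX5, lower in every siDDX5 library, while its CPM overlapped. The share of all genes whose groups separate in TPM was not counted. Its coding transcripts were at 140.2, 115 and 119 and 117, 119 and 118 TPM, which overlap. The separation therefore lay in the other transcripts, at 90.8, 106 and 91.9 TPM in the control and 74.5, 64.3 and 75.3 TPM in siDDX5. SKP2 had a transcript subject to nonsense-mediated decay, ENST00000509692.5, at 8.03%, 6.47% and 6.12% of its counts in the control and 5.59%, 0% and 0% in siDDX5. It is listed at 0 in 2 siDDX5 libraries, and among the alternatives run SKP2 passed the usage test only when no filter was applied or when siDDX5 replicate 1 was left out.

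**Figure D5:**
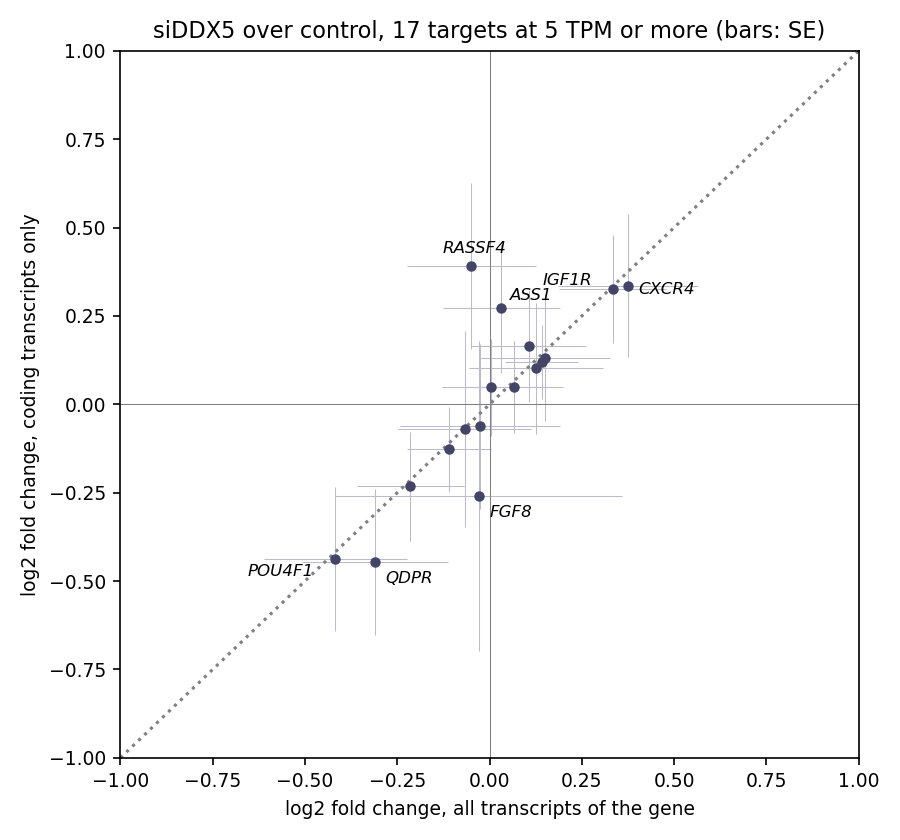
Log2 fold change over coding transcripts (vertical) against that over all transcripts (horizontal) for the 17 targets at 5 TPM or more, with SE bars and the line of equality dotted. RASSF4 lies farthest from the line, at 0.39 for coding against -0.05 for all transcripts, and no target passed in either sum.

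The fusion's partners and cofactors were read from the same fit, as a list of 19 genes. All 19 were tested and 0 were called. PAX3, whose promoter drives the fusion, was at 28.0, 28.6 and 23.4 CPM in control and 25.9, 20.3 and 20.6 CPM in siDDX5, with a log2 fold change of -0.26 ± 0.14 (SE, adjusted p = 0.531 by edgeR). FOXO1 averaged 30.2 ± 0.889 CPM in control and 28.5 ± 2.05 CPM in siDDX5 (SD, n = 3), with a log2 fold change of -0.08 ± 0.11 (SE, adjusted p = 0.828 by edgeR). No fusion transcript was counted on its own, so fusion reads under these genes cannot be told apart from those of the normal copies. Under an unadjusted p of 0.05 were 0 higher and 2 lower, the acetyltransferases KAT2B (log2 -0.37 ± 0.14 SE, adjusted p = 0.360 by edgeR) and EP300 (log2 -0.28 ± 0.12 SE, adjusted p = 0.420 by edgeR). Over all genes 5.29% were higher and 5.99% lower. With the block 0 were higher and 4 lower (KAT2B, EP300, CREBBP and PAX3, the last lower in 3 of 3 pairs, with an edgeR adjusted p of 0.229 in that fit), against 10.1% and 10.3% of all genes. The list's median log2 fold change was -0.11, beside -0.00168 for all genes.

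Of 25 ligands, partners and paralogs of the target receptors, 16 were tested and 0 were called. The median log2 fold change was -0.07. FGFR1, the FGFR4 paralog, was at 46.7 ± 5.85 TPM, and IGF2, the main IGF1R ligand in this tumour, at 52.6 ± 20.6 TPM (SD, n = 3). HGF, the MET ligand, FGF19, an FGFR4 ligand, and ALKAL1, an ALK ligand, were at 0 in all 6 libraries. CXCL12 lay between 0.16 and 1.13 TPM and ALKAL2 between 0.27 and 1.03 TPM over the libraries. LTK, the ALK paralog, was the only list gene under an unadjusted p of 0.05 without the block (log2 -0.47 ± 0.17 SE, adjusted p = 0.337 by edgeR), against 5.99% of all genes lower. With the block 2 were higher (IRS2 and FGF18) and 1 lower, against 10.1% and 10.3%.

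Promoter windows from RefSeq (GRCh38.p14, 300 bases, mostly before the start) were available for 24 of the 31 targets, 45 windows in all. The core letters of the PAX3 paired-domain site, GTCACG, occurred on either strand in 15.6% of those windows (7 windows with 6 distinct sites, since overlapping windows share a site, from the genes ABAT, CNR1, GREM1, NOS1 and PRKAR2B) and in 9.02% of 35116 windows of all genes. The homeodomain core ATTA occurred in 51.1% and 50.2%. The palindromic pair of TAAT and ATTA, which itself contains ATTA, was in 0 target windows and 0.45% of all with a spacer of 2 bases, and in 2.22% (NRCAM) and 0.365% with a spacer of 3. These are matches of letters and say nothing of binding.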

How the data were processed

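The 6 libraries, 3 control and 3 siDDX5, were grouped and numbered by their titles. The authors deposited 1 table per library with the length, effective length, estimated count and TPM of each transcript, per the file headers. The submitters' processing notes list bcl2fastq 2.20, FastQC 0.11.8, cutadapt 1.11, kallisto 0.46.0 and GRCh38. The deposited estimated counts are not normalised, and reads shared by transcripts had been divided among them. The deposited TPM values are scaled for effective length and to a common total.

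Transcripts were joined to genes with GENCODE release 29: 169797 of 188753 by identifier, 15322 on alternate sequences by symbol, and 3634 not at all, which left out at most 0.74% of a library's counts. Estimated counts were summed per gene, rounded, filtered with filterByExpr, scaled with TMM and tested with glmQLFTest in edgeR 4.0.16 (R 4.3.3), with Benjamini-Hochberg adjustment over all 15204 genes and a threshold of 0.05. The SE is the log2 fold change divided by the square root of F. Both edgeR tests were tested on simulated data. Deviations from the group means correlated at 0.206, 0.267 and 0.564 between same-numbered libraries, each above 0.1, and each library correlated best with its own number. The replicate number was therefore also used as a block, although the titles do not say that such libraries were made together. Alternatives were DESeq2 1.42.0, limma 3.58.1 on TPM for genes with a mean of at least 1 TPM, other filters and joins, and leaving out each library. The sum over protein-coding transcripts was added after the data had been seen.

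The targets and gene lists were chosen with earlier results of these data known. Targets with a mean of at least 5 TPM in the control were given per library. Those with an unadjusted p under 0.05 in either fit, or with groups that did not overlap, were given with fold change, SE and adjusted p. Genes of the lists were named when under that unadjusted p without the block, or as the ligand or paralog of a target. Protein sequences were not used here.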

Additional observations from a re-analysis of the deposited data

How the results depend on the processing

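In every alternative run, 0 targets were called, and the smallest adjusted p over all of them was 0.102 (edgeR with the replicate block). Targets at an unadjusted p under 0.05 numbered 4 with no filter (8.3% of all genes), 1 with a mean of at least 50 counts (12.9%), 1 with limma at either pseudocount (8.6% and 8.45%), 1 for protein-coding transcripts (11.8%), 6 with the replicate block (20.4%), and 0 to 3 with each library left out (8.03% to 13.1%). The block changed no other call of a target. Over all genes, 26 calls became 327 with DESeq2, 129 with no filter, 1 with limma at either pseudocount, 377 with the block and 0 to 16 with each library left out. They were 0 without control replicate 1 or siDDX5 replicate 1, where 1242 and 2036 genes had an unadjusted p under 0.05 in edgeR. DDX5 was at -1.44 in both limma fits (adjusted p = 0.0856 and 0.0936) and between -1.54 and -1.30 with each library left out. The median of the targets ran from -0.0643 to 0.17, the latter without control replicate 1. Targets with changed transcript usage numbered 2 with no filter, 0 with a mean of at least 50 counts, and 1 to 3 with each library left out (3 without siDDX5 replicate 1: BVES, NOS1 and SKP2). Over all genes the usage calls were 396, 41, and 223 to 445, the highest without siDDX5 replicate 1.

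Of 376 log2 fold changes of single targets under an alternative, 39 reversed in sign, and 9 of 26 targets never did. With limma at pseudocounts of 1 and 0.1, FGFR4 was at -0.22 and -0.22, FGF8 at 0.14 and 0.17, SKP2 at -0.0233 and -0.0234, ASS1 at -0.0824 and -0.0829, BVES at -0.0469 and -0.0483, and NRCAM at -0.0207 and -0.0260. FGF8 was at 0.0349 with the block and RASSF4 at 0.39 over protein-coding transcripts. With each library left out the ranges that crossed 0 were -0.28 to 0.19 for ABAT, -0.21 to 0.0300 for ALK, -0.11 to 0.20 for ASS1, -0.23 to 0.11 for ATOH8, -1.65 to 0.41 for DCX, -0.31 to 0.55 for FGF8, -0.0650 to 0.15 for FGFR4, -0.58 to 0.0497 for FOXF1 and -0.0200 to 1.01 for GREM1. The others were -0.0015 to 0.17 for MYCN, -0.0166 to 0.31 for NOS1, -0.0396 to 0.29 for PIPOX, -0.17 to 0.0691 for PODXL2, -0.17 to 0.17 for RASSF4 and -0.0273 to 0.29 for SKP2. The causes were not tested. Without a library, its group holds 2, so fewer samples carry each test, and targets under 1 TPM are limited by depth.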
